A study of Mus musculus with 7 samples.

Results

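The cytosolic ribosomal protein genes were taken as the rows whose symbol is Rpl or Rps followed by a number, with an optional a, x or l, together with Rplp0, Rplp1, Rplp2 and Rpsa. This rule found 81 of the 24346 genes in the expression table, of which 49 encode proteins of the large subunit and 32 proteins of the small subunit. RNA was sequenced from primary neurospheres, which are floating clusters of neural stem and progenitor cells, grown from the hippocampus of 2-month-old C57/BL6 mice with FGF and EGF. Each library came from a single mouse. The 4 control libraries are named WT_215, WT_116, WT_213 and WT_220, and the 3 libraries of conditional knockout mice (Med23 CKO) are named KO_117, KO_214 and KO_218. Values below are given in this order unless libraries are named. The CKO mice carried Nestin-CreER and Med23 flox/flox, so that tamoxifen removes exons of Med23, a subunit of the Mediator complex, in cells in which the Nestin promoter is active. The control littermates, labelled wild type, are given in the methods as Med23 flox/+ or Med23 flox/flox. Tamoxifen was given to both groups by gavage, on 5 days in a row, at 200 mg/kg. Reads were summarised by the authors as FPKM, which divides fragments by transcript length and by the size of the library, so levels can be set side by side between genes.

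A ribosome joins a small subunit, which reads the mRNA, to a large subunit, which forms the peptide bond and lets the new chain out through a tunnel. Each ribosome needs its proteins in nearly equal numbers, and the genes are among the most abundantly transcribed of any growing cell. Most of their mRNAs begin with a cytosine and a stretch of pyrimidines, the terminal oligopyrimidine tract, through which the mTOR pathway and Larp1 set their translation. Many of these genes also have processed copies elsewhere in the genome, which arose from reverse-transcribed mRNA and can be nearly identical to the parent gene.

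RefSeq start sites on GRCm38.p6 were available for 60 of the 81 genes, with 72 annotated promoters. In 13 of these 72 (18.1%) a C at the annotated start was followed by at least 4 further pyrimidines, C or T, against 2.51% of all 32851 promoters of the same length. Counting such a stretch anywhere within 5 bases of the start, on the gene's strand, it was found in 41.7% of the promoters of ribosomal protein genes and 18.3% of all promoters. Around a point 100 bases before the start the shares were 22.2% and 19.7%. The following windows cover 10 bases before the start and 20 from the start on, and are shown because they carry the 5 longest stretches at the annotated start, which stand in capitals.
Rpl15 (chr14:18270967-18270996, minus strand): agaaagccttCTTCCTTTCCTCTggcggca
Rpl35 (chr2:39005112-39005141, minus strand): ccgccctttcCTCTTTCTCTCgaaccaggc
Rps10 (chr17:27635225-27635254, minus strand): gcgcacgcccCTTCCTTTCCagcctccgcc
Rps6 (chr4:86857348-86857377, minus strand): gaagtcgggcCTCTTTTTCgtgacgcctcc
Rps18 (chr17:33955646-33955675, minus strand): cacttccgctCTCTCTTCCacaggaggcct
The stretch is 13 bases long in Rpl15, a core protein of the large subunit, and 9 in Rps6 and Rps18. All 72 promoters were also searched on both strands for CCGGAAG, a word bound by Ets family factors. It was found in 36.1% of the promoters of ribosomal protein genes and 8.86% of all promoters, and its reverse complement, CTTCCGG, can overlap a pyrimidine stretch. TATAAA on either strand was found in 8.33% and 13.6%. These matches describe the letters in the windows only.

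Some members have near-identical copies that were measured as separate genes. The coding sequences of Rps27 (chr3:90212522-90213651, minus strand) and Rps27rt (chr9:114982366-114982739, minus strand) have 0 differences over 252 bases, so that this sequence stands for both.
Rps27 and Rps27rt: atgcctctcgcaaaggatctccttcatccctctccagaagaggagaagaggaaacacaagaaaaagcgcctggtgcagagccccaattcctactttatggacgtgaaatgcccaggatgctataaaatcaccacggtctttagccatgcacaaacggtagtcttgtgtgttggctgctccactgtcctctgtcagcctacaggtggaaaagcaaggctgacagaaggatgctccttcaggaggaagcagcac
Rpl30 (chr15:34440505-34443640, minus strand) has 1 difference in 345 coding bases from Gm12191, a processed pseudogene at chr11:49678710-49679057 on the minus strand.
Rpl26 has 2 differences in 435 bases from the pseudogene Gm15772, and Rpl34 has 2 in 351 bases from Rpl34-ps1. In all, 12 of the 81 genes had a listed copy that shared at least 10% of the 50-base words of their coding sequence and had a mean FPKM of at least 0.5. How reads that fit both copies were assigned is not given in the sources used here.

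Ribosomal protein genes took a large part of the measured transcripts. Of the 100 genes with the highest mean FPKM, 51 were ribosomal protein genes, and the median of their mean FPKM was 818 against 11.1 for all genes tested. Their share of the summed FPKM was 13.9% in WT_215, 13.7% in WT_116, 14.3% in WT_213, 16.4% in WT_220, 15.2% in KO_117, 10.3% in KO_214 and 13.7% in KO_218. The share was 14.6% ± 1.27 (SD, n = 4) in controls and 13.1% ± 2.52 (SD, n = 3) in Med23 CKO, with the highest value in a control and the lowest in a Med23 CKO library, and the groups overlapped. The summed FPKM of large subunit genes exceeded that of small subunit genes 1.33 ± 0.015 times in controls (SD, n = 4) and 1.35 ± 0.051 times in Med23 CKO (SD, n = 3), and this ratio was highest, 1.41, in KO_214.

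Most members lay within a narrow band. A mean FPKM between 200 and 2000 was found for 71 of the 81 genes, and 33 were above 1000. The highest was Rpl41, which encodes the smallest ribosomal protein, with a mean of 3218 FPKM and a range from 2758 to 3926. It was followed by Rplp1, an acidic protein of the stalk, with 2123. Rps26, which lines the mRNA exit channel, had 1915, Rps2, which lies at the mRNA entry, 1633, Rps28 1511 and the large subunit protein Rpl13 1479. At the other end, Rpl22, a protein dispensable for the core of the subunit, had 142 FPKM, Rpl26 66.2, Rpl30 64.7, Rps15a 63.8 and Rps4l, annotated by GENCODE as a transcribed processed pseudogene, 24.1. The low values of Rpl26 and Rpl30 stood beside an abundant copy, since Gm15772 had a mean of 1101 FPKM and Gm12191 one of 759.7. The annotation of Rps15a holds a transcript of 5179 bases, against a median of 1059 for the longest transcripts of the members, and FPKM divides by transcript length. Its part in the low value was not tested.

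**Figure D1:**
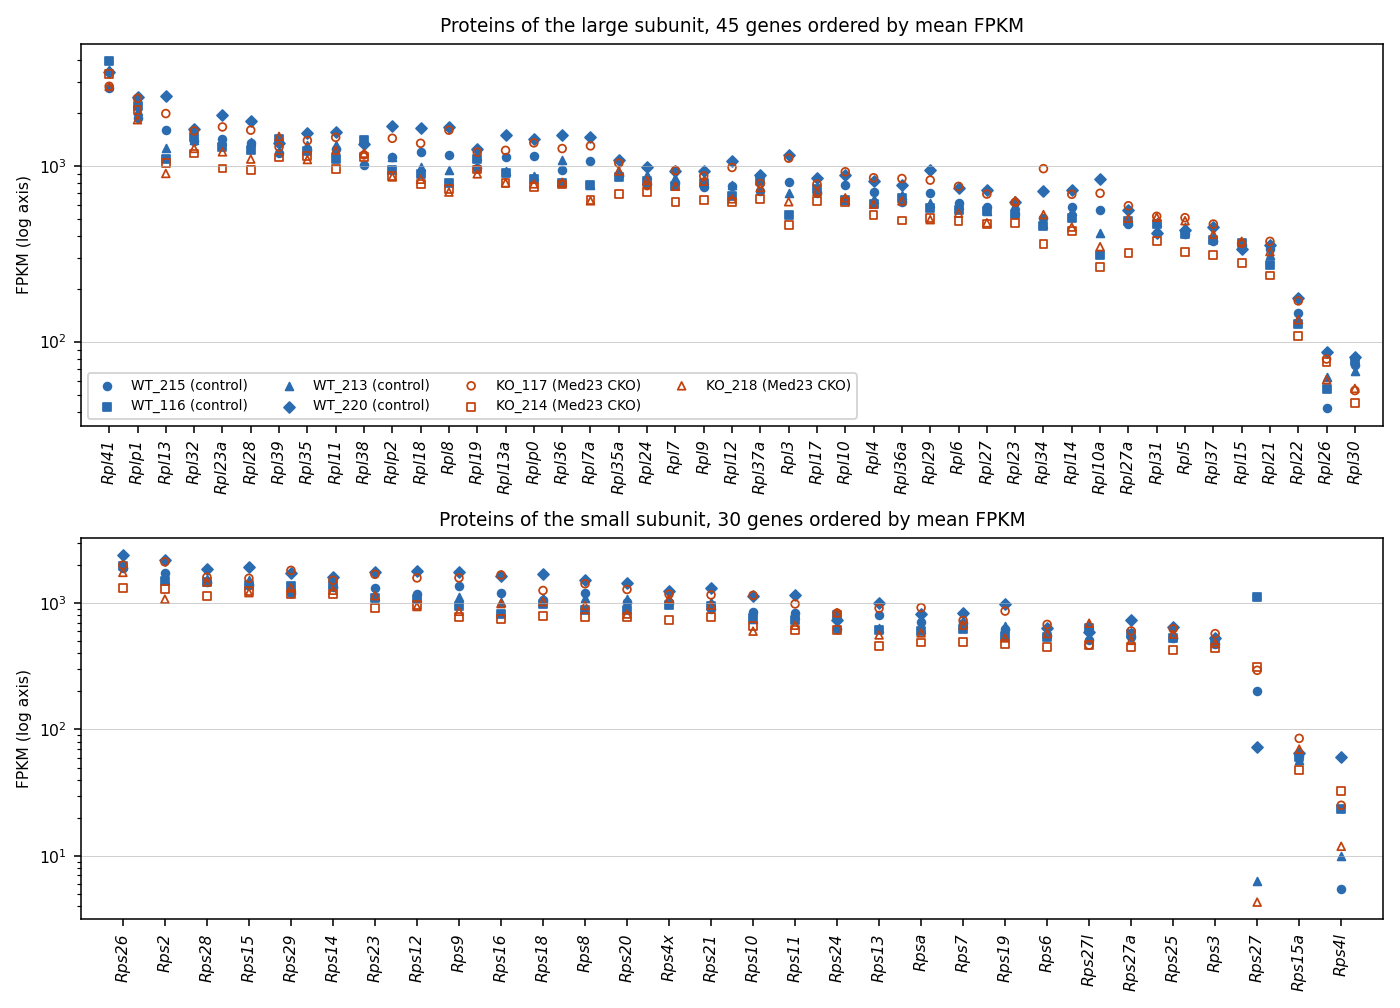
FPKM on a log axis for 45 large subunit genes (top) and 30 small subunit genes (bottom) among those tested, ordered by mean FPKM. Each point is a library, filled for control and open for Med23 CKO. Most genes lie between 200 and 2000 FPKM, WT_220 is often the highest point and KO_214 the lowest, and Rps27 spreads from 4.29 to 1128.

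Paralogs known for expression in testis or muscle were at or near 0. Rpl10l, a retrogene of testis, was listed at 0 in every library. Rpl3l, a form of striated muscle, reached at most 0.321 FPKM and Rpl39l, a form of male germ cells, at most 0.647. These were the 3 members that did not reach a mean of 0.5 FPKM and were not tested. Their parents were abundant, with means of 736 for Rpl10, 767 for Rpl3 and 1317 for Rpl39. Rps4x, the parent of Rps4l, was at 1069.8 ± 121 in controls and 999.7 ± 233 in Med23 CKO. Rps27l, a paralog of Rps27 induced by p53, was expressed at 603 ± 70.5 FPKM in controls (SD, n = 4) and 543 ± 131 in Med23 CKO (SD, n = 3).

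The deletion itself was followed through Med23, which is not a ribosomal protein gene. Med23 was at 11.4, 10.3, 12.9 and 10.1 FPKM in controls and 9.97, 9.27 and 8.12 in Med23 CKO. All Med23 CKO values lay below the control values, by a log2 difference of -0.26 with an SE of 0.18, which did not pass limma's test (unadjusted p = 0.175, exact permutation p = 0.0571). FPKM counts reads over the whole transcript, of which the deleted exons 5 to 7 are only a part, so it is a weak check of the labels. The paper reports separate checks of the deletion, by western blot on hippocampus and by qRT-PCR for Med23 in neurospheres.

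The comparison of Med23 CKO with control asked whether the ribosomal protein genes changed with loss of Med23. By limma on log2(FPKM + 1), with Benjamini-Hochberg adjustment over 14151 genes, 0 of the 78 members tested had an adjusted p under 0.05, against 0.0% of all genes. At an unadjusted p under 0.05, 0 were higher in Med23 CKO, against 0.502% of all genes, and 1 (1.28%) was lower, against 0.996%. By the exact permutation test per gene, where 0.0286 is the smallest p that 35 assignments allow, the counts of members were also 0 and 1. All 3 Med23 CKO values lay above all controls in 0 members, against 0.784% of all genes, and below them in 1, against 1.53%. These shares are near those of all genes. The p-values of limma set each difference against the spread between single mice, moderated over all genes.

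No gene passed the adjusted test, and the means of most members were lower in Med23 CKO. The difference in mean log2(FPKM + 1) was below 0 for 69 of the 78 (88.5%), against 56.2% of all genes tested, and its median was -0.15, against -0.03 for all genes. It was -0.14 over the 46 large subunit genes and -0.17 over the 32 small subunit genes. For 68 members the difference was smaller than its own SE. The median depended on single libraries. It was -0.02, with 45 of 78 differences below 0, without KO_214 (all genes -0.06), -0.05 without WT_220 (all genes -0.04), and -0.29, with 76 below 0, without KO_117 (all genes -0.04). Members move together from library to library, so their number does not add replicates.

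**Figure D2:**
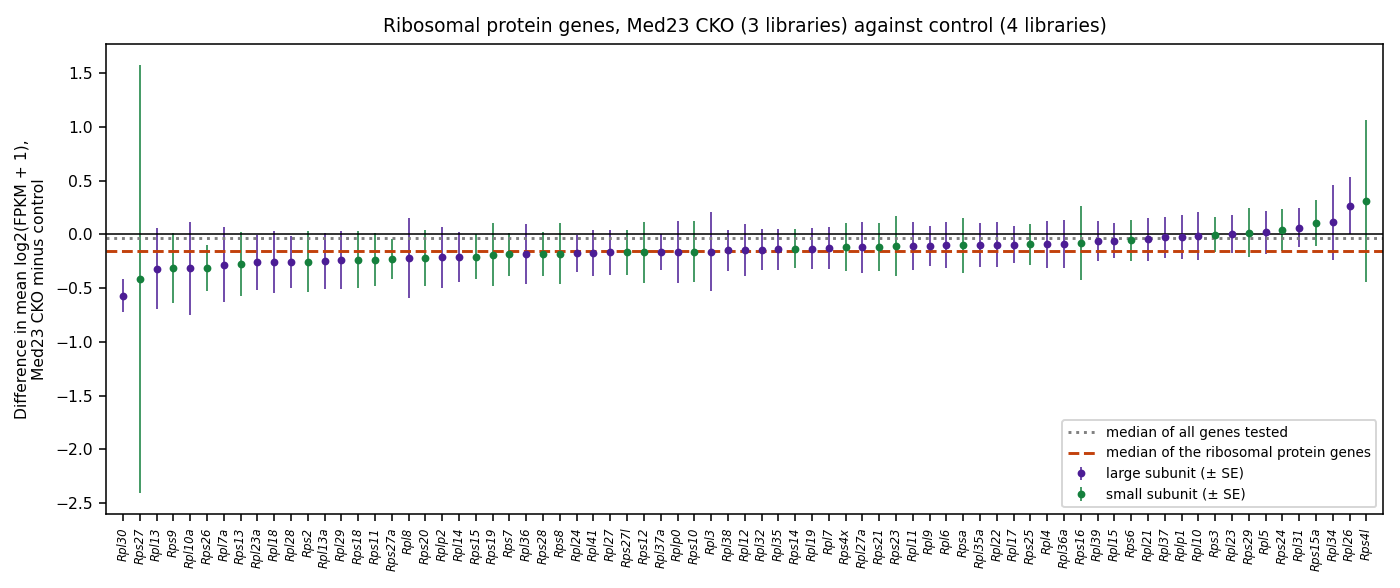
Difference in mean log2(FPKM + 1), Med23 CKO minus control, with its SE from limma, for 75 of the 78 genes tested, in order of size. Points for the large and small subunit are coloured apart, the dashed line is the median of all 78 members (-0.15) and the dotted line that of all genes tested (-0.03). Most points lie below 0 with error bars that cross it, and Rpl30 at the left has a short bar.

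The members moved further between libraries of the same group than between the groups. Relative to each gene's mean over 7 libraries, the median deviation on the log2 scale was -0.01 in WT_215, -0.09 in WT_116, 0.00 in WT_213 and 0.32 in WT_220, and it was 0.27 in KO_117, -0.36 in KO_214 and -0.16 in KO_218. WT_220 gave the highest value of 52 of the 78 members and KO_117 that of 18. KO_214 gave the lowest value of 60 and KO_218 that of 13. The highest and the lowest libraries of the Med23 CKO group thus lay to either side of WT_215, WT_116 and WT_213.

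**Figure D3:**
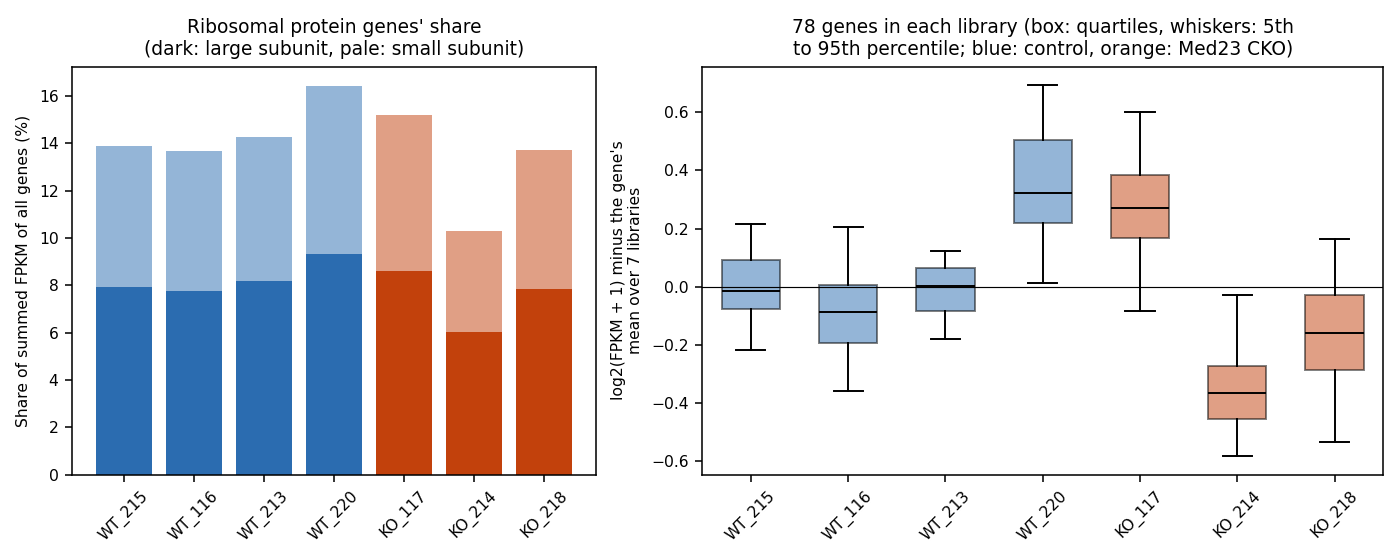
Left, the share of summed FPKM taken by large (dark) and small (pale) subunit genes in each library; right, the deviation of the 78 members from their own means, as boxes of quartiles with whiskers from the 5th to the 95th percentile. Controls are blue and Med23 CKO orange. WT_220 (16.4%) and KO_117 (15.2%) stand highest and KO_214 (10.3%) lowest in both panels.

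Some other gene lists also had an extreme in KO_117, WT_220 or KO_214, but the remaining libraries were ordered otherwise. The median deviation of the members was -0.01 in WT_215 and 0.32 in WT_220, where the means of the proliferation genes given next were close. The mean log2(FPKM + 1) of 15 proliferation genes, among them Mki67, Top2a and the Mcm helicase subunits, was 6.23, 4.56, 5.26 and 6.27 in controls and 6.67, 3.57 and 5.33 in Med23 CKO. It was highest in KO_117 and lowest in KO_214, where all 15 genes had their lowest value. Markers of microglia and macrophages went the other way, with a summed FPKM of 17.5 to 93.2 in controls and of 18.5, 439 and 75.4 in the Med23 CKO libraries, and 8 of 10 were highest in KO_214. The summed FPKM of 7 endothelial markers was 6.76 to 48.0 in controls and 4.84, 89.2 and 27.9 in the Med23 CKO libraries, and that of 8 mural and fibroblast markers was 47.4 to 96.0 and 53.3, 318 and 58.6. Of the mural and fibroblast sums, Cspg4, also counted below for the oligodendrocyte lineage, made up 47.2 of 53.3 in KO_117. It made up 51.0 of 59.4 in WT_220 and 43.2 of 96.0 in WT_215, and was at most 12.9 in the other libraries. No gene of these lists was at 0 in every library. The 10 neural stem cell markers, which define the labelled cell type, summed to 1887 to 3853 FPKM in controls and 2066 to 3851 in Med23 CKO, and none of them was under 1 FPKM throughout. The 8 markers of the oligodendrocyte lineage summed to 2590 to 4641 in controls and 2235 to 2783 in Med23 CKO, and the 8 of neuroblasts and neurons to 122 to 151 and 77.3 to 189. The part of these cells and of proliferation in the ribosomal protein levels was not tested. In bulk RNA, fewer cells of a type and less RNA per cell cannot be told apart.

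Rpl30 was the single member that passed the unadjusted test. Its product belongs to the large subunit and also binds selenocysteine elements. It was at 73.2, 78.0, 68.2 and 81.8 FPKM in controls and 52.7, 44.6 and 54.2 in Med23 CKO. The groups did not overlap. The difference was -0.57 on the log2 scale with an SE of 0.15, and the adjusted p of limma was 0.9999 (unadjusted p = 0.00621, exact permutation p = 0.0286). Its copy Gm12191, which differs from it at 1 coding base, had a mean of 759.7 FPKM. The log2 difference of Gm12191 alone was -0.09 with an SE of 0.18 (limma, unadjusted p = 0.630). With the copy added, the sums were 827, 808, 847 and 929 in the controls and 827, 650 and 883 in the Med23 CKO libraries, and the groups overlapped. The difference of the sums was -0.13 with an SE of 0.18 (limma on the sums, unadjusted p = 0.495), and the addition was chosen after the values were seen. Gm12191 makes up most of each sum, so the sums could hardly show a difference in Rpl30 alone.

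The division of FPKM between a member and its copy varied widely for Rps27 and Rps27rt. How reads were shared between the copies was not tested. Rps27 encodes a small subunit protein with a zinc finger, and its FPKM was 202, 1128, 6.30 and 72.1 in controls and 294, 312 and 4.29 in Med23 CKO. Rps27rt was at 908, 63.3, 1158 and 1565 in the controls and 1079.5, 602 and 1141 in Med23 CKO. Rps27 held between 0.375% and 94.7% of the pair, and the extremes were a Med23 CKO library and a control. The sums were 1109, 1192, 1165 and 1637 in controls and 1374, 915 and 1145 in Med23 CKO, and their order over the libraries was led by WT_220 with KO_214 last, as for most members. The SD over the 7 libraries was 2.91 for Rps27 alone and 0.26 for the sum, on the log2 scale.

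Rpl26 and Rpl34 were also set beside their copies. Rpl26, which lies near the opening of the exit tunnel, was at 41.8, 54.0, 63.2 and 87.7 FPKM in controls and 79.7, 76.4 and 60.7 in Med23 CKO, a difference of 0.27 with an SE of 0.26. Summed with Gm15772, the values were 998, 1239, 1257 and 1275 in controls and 1221, 1038 and 1145 in Med23 CKO, a difference of -0.07 with an SE of 0.18. The sign differed between Rpl26 alone and the sum, of which Gm15772 makes up most, and neither difference passed the test. Rpl34 was at 962 FPKM in KO_117 and between 359.9 and 716 elsewhere. Rpl34-ps1 was at 340, 327, 305 and 436 in controls and 77.1, 298 and 197 in Med23 CKO, and the groups did not overlap. Its log2 difference was -1.07 with an SE of 0.43 (limma, unadjusted p = 0.0384, adjusted p = 0.9999). The sum of Rpl34 and Rpl34-ps1 in KO_117, 1039, lay below that in WT_220, 1152. The difference of the sums was -0.14 with an SE of 0.24. With the copies of all 12 genes added, 0 of 78 members had an unadjusted p under 0.05, the median difference was -0.15 and 71 were below 0.

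**Figure D4:**
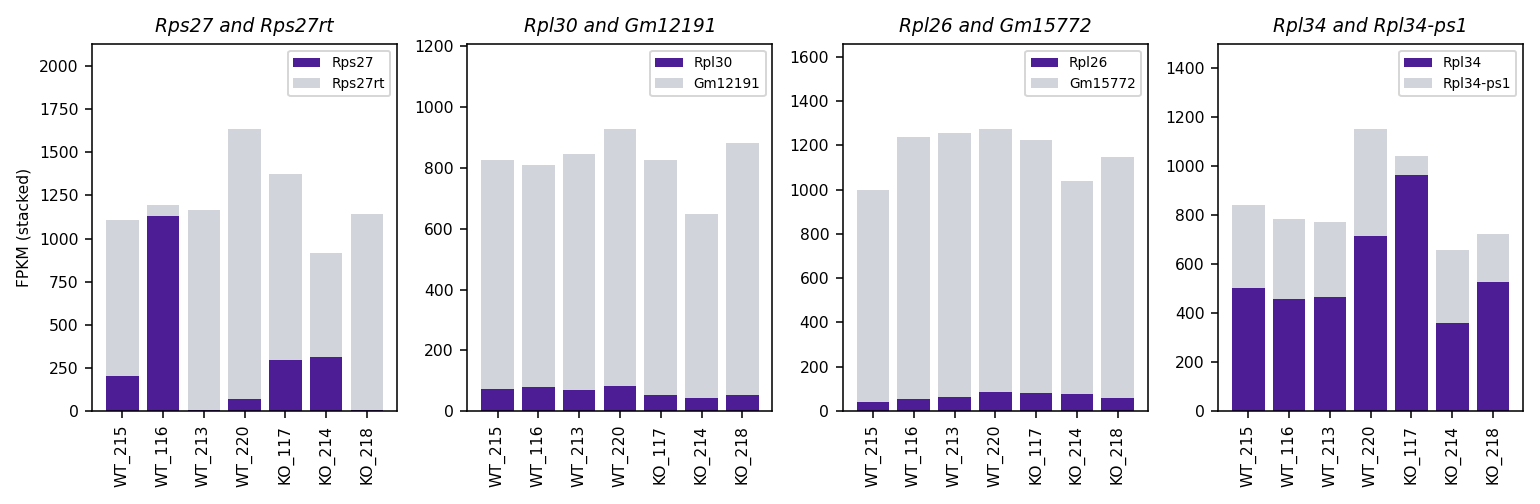
FPKM of 4 ribosomal protein genes (purple) with a nearly identical copy stacked on top (grey), in each library. The split between Rps27 and Rps27rt changes from library to library while the sum lies between 915 and 1637, and Rpl30 and Rpl26 are a thin layer under their copies.

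Among the members with the smallest p on the lower side after Rpl30 were Rps26, Rps27a and Rpl24. Rps26 was at 2082 ± 225 FPKM in controls (SD, n = 4) and 1692 ± 346 in Med23 CKO (SD, n = 3), a log2 difference of -0.31 with an SE of 0.22. Rps27a, made as a fusion with ubiquitin, was at 611 ± 87.9 and 521 ± 76.7. Rpl24, at the bridge between the subunits, was at 869 ± 87.3 and 767 ± 60.5. The unadjusted p of limma was 0.187 for Rps26 and at least 0.263 for the other two, and in each the groups overlapped. On the higher side stood Rpl26, Rps15a, Rps4l, Rpl31 and Rpl34. Rps15a was at 61.0 ± 3.16 and 67.6 ± 18.8 and Rpl31, beside the tunnel exit, at 443 ± 34.6 and 466 ± 81.2. Their unadjusted p lay between 0.339 and 0.759. Rps4l ranged from 5.45 to 60.6 within the controls.

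Grouped by place in the ribosome, no group had a gene with an unadjusted p under 0.05 by limma. Over all genes, 0.502% passed on the higher and 0.996% on the lower side, so lists this small would rarely hold one. The 3 stalk proteins recruit the translation factors. Rplp0, their base, was at 1129, 845, 878 and 1412 FPKM in controls and 1349, 759.8 and 788 in Med23 CKO, with WT_220 and KO_117 high in their groups and a log2 difference of -0.16 with an SE of 0.29. Rplp1 was at 2137 ± 257 and 2103 ± 296, and Rplp2 at 1220.1 ± 324 and 1057 ± 324. The difference was -0.02 for Rplp1 and -0.21 for Rplp2. Rpl5 and Rpl11 form a particle with the 5S RNA that binds Mdm2 when ribosome assembly fails. Rpl11 was at 1301 ± 195 and 1213 ± 244, and Rpl5 at 425 ± 18.7 and 439 ± 101, differences of -0.11 and 0.02.

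Among the 8 proteins around the exit tunnel, 6 differences were below 0 and the median was -0.09. Rpl4, which reaches into the tunnel, was at 694 ± 91.0 and 660.5 ± 172, Rpl23a, the docking site of factors at the exit, at 1507 ± 298 and 1274 ± 355, and Rpl39 at 1339.9 ± 114 and 1287 ± 178. Rpl17 was at 759 ± 66.3 and 711 ± 76.9, Rpl35 at 1325 ± 151 and 1205 ± 163, and Rpl19 at 1109 ± 113 and 1015 ± 158. Among 8 small subunit proteins listed together, most of them of the mRNA entry, the head or the decoding region, all 8 differences were below 0. Their median was -0.14. This list includes Rps3a1, which is outside the rule and is given further below. Over all genes tested, 56.2% of differences were below 0 and the median was -0.03. Rps3, which forms part of the entry, was nearly the same in both groups, 498 ± 24.0 and 499 ± 68.9. Rps2 was at 1734 ± 314 and 1500 ± 553, Rps10 at 875 ± 178 and 805 ± 304, Rps12 at 1299 ± 344 and 1165 ± 365, Rps20 at 1108 ± 240.4 and 962 ± 280.1, and Rps23, which holds a loop in the decoding centre, at 1334 ± 308 and 1252 ± 399. Rpsa, also known as the laminin receptor, was at 691 ± 98.7 and 664 ± 229. In these groups the largest difference relative to its SE was that of Rpl26, 1.02 times the SE.

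Once each library was centred on the median of the members, most genes varied little. The SD over 7 libraries on the log2 scale had a median of 0.15. The least variable were Rpl6 with 0.059, Rpl27 with 0.065 and Rpl28 with 0.075, so that these tracked the common level. The most variable were Rps27 with 2.91, Rps4l with 1.03 and Rpl10a with 0.40. Rpl10a, which forms the mobile stalk beside the site where tRNA leaves, was at 562, 312, 415 and 843 FPKM in controls and 697, 265 and 346 in Med23 CKO, again with WT_220 highest and KO_214 lowest.

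The members did not scale by a common factor. From KO_214 to WT_220 the log2 difference was 1.67 for Rpl10a, 1.31 for Rpl3 and 1.26 for Rpl13, but 0.03 for Rpl41, 0.15 for Rpl31 and 0.24 for Rpl38, leaving aside Rps27 and Rpl26 with their copies. The coding sequence has 75 bases in Rpl41, 375 in Rpl31 and 210 in Rpl38, and it has 648 in Rpl10a. Some longer genes also differed little, such as Rpl15 with 612 bases (0.25) and Rps3 with 729 bases (0.27). Ordered by coding length, the 26 genes of 75 to 399 bases had a median deviation of 0.24 in WT_220, the 25 genes of 405 to 552 bases one of 0.44 and the 26 genes of 564 to 1257 bases one of 0.36, so that the middle group was highest in this library. From the short to the long group the medians were -0.08, -0.02 and 0.09 in WT_215 and -0.06, -0.16 and -0.21 in KO_218. In KO_214 they were close to each other, at -0.34, -0.36 and -0.39. Across the 77 members with a coding sequence, Spearman's rho between coding length and deviation was 0.53 in WT_215, 0.28 in WT_220 and 0.36 in KO_117, but -0.44 in WT_116, -0.36 in WT_213, -0.28 in KO_214 and -0.24 in KO_218. These correlations are descriptions over genes of the same library. The median difference between the groups was -0.13 for the short, -0.17 for the middle and -0.16 for the long genes. With each library's trend in length and GC content removed over all genes it was -0.13 for all members.

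**Figure D5:**
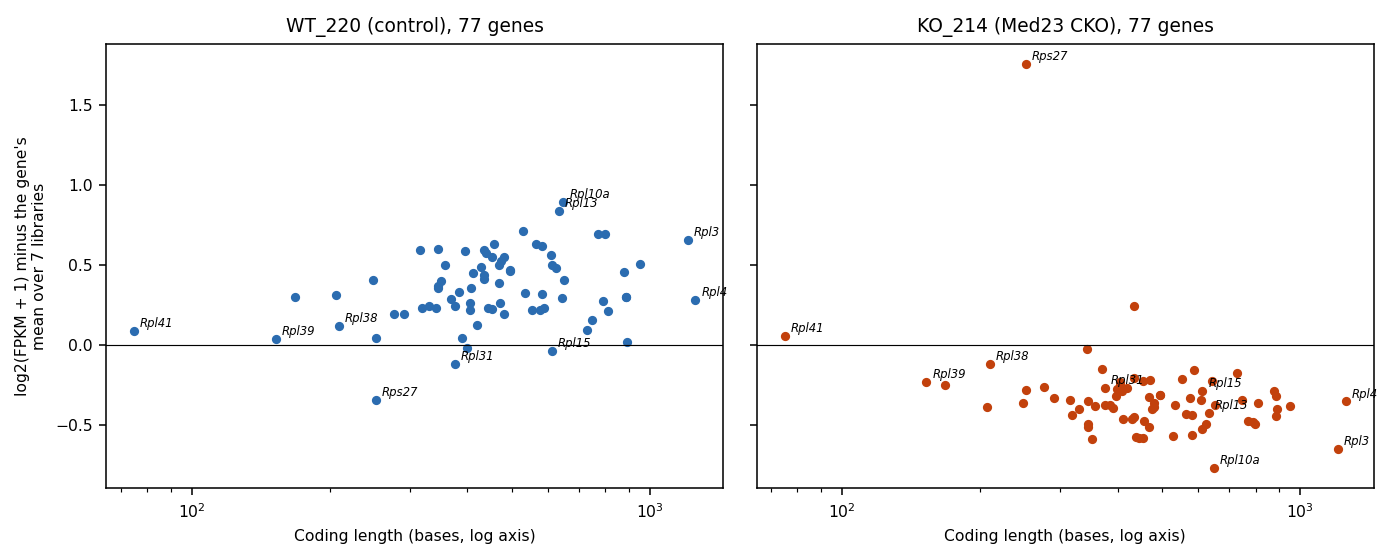
Deviation of 77 ribosomal protein genes from their own mean over 7 libraries, on the log2 scale, against coding length on a log axis, in WT_220 (left) and KO_214 (right). Rpl41 and Rpl38 lie near 0 in both, while Rpl10a and Rpl3 lie far above 0 in WT_220 and far below it in KO_214. Short genes as a group do not lie near 0: the 26 genes of 75 to 399 bases have medians of 0.24 in WT_220 and -0.34 in KO_214.

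Genes outside the rule that encode ribosomal proteins or a protein bound to the ribosome were measured too. Fau, whose product holds a small subunit protein, was at 749, 775, 734 and 1228 FPKM in controls and 1117, 779 and 592 in Med23 CKO. Its highest values were in WT_220 and KO_117, as for most members, and its lowest in KO_218. Rps3a1 had a mean of 1126, Gnb2l1, the scaffold on the small subunit head also called Rack1, 646, Rpl36al 464, Rpl22l1 203 and Rpl7l1 42.8. Of these 6 genes, 0 had an unadjusted p under 0.05, against 0.502% of all genes on the higher and 0.996% on the lower side. For 5 of them the difference was below 0, against 56.2% of all genes.

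In the wider translation machinery, 0 genes of the following lists passed an unadjusted p of 0.05 by limma in either direction. Over all genes tested, 0.502% passed on the higher and 0.996% on the lower side. The median log2 difference of all genes was -0.03, with 56.2% below 0. The 19 translation factors, many with a terminal pyrimidine stretch of their own, had a median log2 difference of -0.10, with 16 below 0. Their mean log2(FPKM + 1) was highest in KO_117 (8.45) and WT_220 (8.37) and lowest in KO_214 (7.67). The 22 initiation factors had a median of -0.02, with 13 below 0. The 38 ribosome biogenesis genes, among them Ncl, Fbl and Nop56, had a median of -0.12, with 34 below 0, and the 14 genes of RNA polymerase I, which makes the large ribosomal RNAs, -0.17, with 10 below 0. The 15 genes of the mTOR pathway had a median of -0.15, with 14 below 0. The 77 mitochondrial ribosomal protein genes had a median of -0.07, with 55 below 0, and their mean log2(FPKM + 1) spanned only 5.19 to 5.42 over the libraries, against 9.15 to 9.83 for the cytosolic ones. Whether these lists differ from one another was not tested.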

How the data were processed

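The members of the gene list, the other lists and the tests were chosen with earlier results of these data known. The authors checked reads with FastQC, removed adapters, aligned to mm10 with TopHat at default settings and computed FPKM with Cuffdiff, and they deposited FPKM per library. The deposited table also holds group means, and, from the authors' comparison, a log2 fold change, a score of the test and p-values before and after adjustment, which were not used. The read depth behind each value is unknown, so the number of libraries limits the precision. Columns of samples without a group numbered 0.

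FPKM was analysed as log2(FPKM + 1) for 14151 genes whose mean FPKM was 0.5 or more, by limma 3.58.1 in R 4.3.3 (lmFit, eBayes with trend, two-sided, Benjamini-Hochberg over all genes), in which the p-value of a gene is moderated. The exact permutation test took the difference in means over 35 assignments. A fold change on this scale understates the change of low genes. The fit was tested on simulated data. Genes named with values were Med23, members of lists of roles, the 3 highest and lowest members of each subunit by level, the 5 smallest p in each direction, the 3 highest and lowest spreads after centring, and ribosomal protein genes outside the rule. A few of these genes are not reported here one by one, and those among the members tested are kept in the counts, shares and medians over all members. Coordinates and coding sequences are those of GENCODE M21 (GRCm38, which is mm10) and promoters those of RefSeq. Copies were found by shared words of 50 bases. Scripts ran in Python with pandas and scipy. The alternatives were another pseudocount, other filters, scalings and variance models, the exact test, the first digit of the mouse number, length and GC content, each library left out, and, chosen after seeing the data, copies summed.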

Additional observations from a re-analysis of the deposited data

Results flagged for a closer look

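The highest or lowest control was set against the other 3 for 91 results, with Dixon's ratio of the gap to the range and its 95% critical value for 4 samples. Chance flags about 1 in 20 groups, and 2 of 91 (2.20%) passed. The mean log2(FPKM + 1) of the ribosomal protein genes was far higher in WT_220 than in the other controls, with a ratio of 0.881. Their share of the summed FPKM, 16.4% in WT_220 and at most 14.3% in the other controls, was also examined and did not pass. Rpl26 summed with its copy Gm15772 was low in WT_215, with a ratio of 0.883. The groups of 3 Med23 CKO libraries are too small for this comparison.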

How the results depend on the processing

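The median log2 difference of the ribosomal protein genes stayed below 0 under the 19 other settings tried besides summed copies, between -0.19 and -0.13 in 12 of them and between -0.29 and -0.02 where a library was left out. The count of members with an unadjusted p under 0.05 was 1 lower and 0 higher in each of these but limma with array weights. Array weights gave 2 lower, Rpl30 and Rps2. Over all genes tested, array weights gave 1080 genes with an unadjusted p under 0.05, against 212 in the main fit. With copies summed, chosen after seeing the data, the count of members was 0. Over the libraries left out it stayed at 1. No member had an adjusted p under 0.05 in any setting. Rpl30 alone had an unadjusted p under 0.05 in all 19, from 0.00299 to 0.0353, with a difference between -0.65 and -0.45. Among 12 genes followed, 9 of 240 values had the other sign than before, none of them with a p under 0.05. Without KO_117, Rpl34 gave -0.27 and Rps15a -0.08. Med23 passed an unadjusted p of 0.05 with array weights, at -0.43, and was 1 of the 1080 genes that did so. That setting gave KO_218 a weight of 3.01 and KO_117 one of 0.301. Causes were not tested. No paired analysis was possible because the groups share no mouse number. The unknown depth and the 7 libraries limit what can be detected.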
